A study of Mus musculus with 15 samples.

Results

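NF-kB subunits and the feedback inhibitors of the pathway were followed over time in mouse hearts after aldosterone and in time-matched control hearts. The set held 10 genes: Nfkbia, Nfkbie, Nfkbiz and Bcl3 of the I-kappa-B family, the signalling regulators Tnfaip3 and Birc3, and the subunits Nfkb1, Nfkb2, Rela and Relb. Members were the probe sets whose only annotated symbol was one of these names, and 19 of 45101 probe sets on the array met this rule. They covered 9 of the 10 genes, out of 18194 genes with a probe set of their own on the array. Nfkb1 was not analysed here, since no probe set carried its symbol alone.

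The series measured total RNA of whole mouse hearts on 15 single-colour expression arrays. The aldosterone arm, from mice injected with the adrenal mineralocorticoid, had 1 array at each of 0.5, 1, 2, 3, 4, 5 and 12 h. The control arm had 1 array at each of the same 7 times, and 1 more control array at 0 h came from an animal or pool without injection. Strain, age, sex, dose and the treatment of the timed controls are not given in the sources used here. Whether each array holds RNA of 1 animal or of several is not stated either, and the p-values below thus reflect array-to-array spread that could be technical.

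NF-kB transcription factors are dimers of Rel-family proteins that are held in the cytoplasm by inhibitors of the I-kappa-B family. When cytokine or pattern receptors activate the I-kappa-B kinases, the inhibitor is degraded, the dimer enters the nucleus and it transcribes, among many targets, the genes of its own inhibitors. In the heart the pathway is best known for induction of adhesion molecules and chemokines after injury and infection. Nfkbia is also a textbook target of the glucocorticoid receptor, a close relative of the mineralocorticoid receptor.

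Promoter windows of 4 members, the 250 bases before the transcription start, are shown because the feedback genes among the members are known to be transcribed by NF-kB itself. They are the RefSeq sequences of build GRCm38.p6, given 5′ to 3′ on the strand of the gene. Capitals mark letters that match the kB consensus of 10 bases on either strand. The window of Nfkbia is chr12:55492648-55492897 (minus strand), that of Tnfaip3 chr10:19015411-19015660 (minus strand), that of Bcl3 chr7:19822756-19823005 (minus strand) and that of Rela chr19:5637291-5637540 (plus strand).
Nfkbia: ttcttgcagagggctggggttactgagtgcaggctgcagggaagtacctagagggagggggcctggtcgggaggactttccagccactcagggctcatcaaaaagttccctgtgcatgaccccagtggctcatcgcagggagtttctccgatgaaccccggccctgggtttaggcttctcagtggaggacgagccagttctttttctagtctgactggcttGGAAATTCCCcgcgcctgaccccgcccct
Tnfaip3: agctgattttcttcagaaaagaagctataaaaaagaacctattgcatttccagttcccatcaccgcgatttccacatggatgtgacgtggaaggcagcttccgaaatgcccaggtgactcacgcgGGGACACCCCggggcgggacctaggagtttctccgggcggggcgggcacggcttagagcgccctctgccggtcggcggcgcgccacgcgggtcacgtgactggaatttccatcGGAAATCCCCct
Bcl3: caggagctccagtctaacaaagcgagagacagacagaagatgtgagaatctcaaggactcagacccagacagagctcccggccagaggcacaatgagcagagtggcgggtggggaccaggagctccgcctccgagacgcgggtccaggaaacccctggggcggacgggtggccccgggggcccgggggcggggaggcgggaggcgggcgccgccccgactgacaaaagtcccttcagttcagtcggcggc
Rela: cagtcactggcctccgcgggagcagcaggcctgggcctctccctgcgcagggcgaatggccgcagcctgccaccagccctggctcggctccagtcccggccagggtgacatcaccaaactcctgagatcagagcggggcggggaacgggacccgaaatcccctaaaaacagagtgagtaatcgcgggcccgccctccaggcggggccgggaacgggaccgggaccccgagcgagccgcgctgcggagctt
The match in Nfkbia, GGAAATTCCC, began 29 bases before the start. Tnfaip3 had 2 matches in this window, GGGACACCCC beginning 125 bases and GGAAATCCCC beginning 12 bases before the start. No letters in the windows of Bcl3 and Rela matched. Of the 10 members, 7 had at least 1 window in the RefSeq table, and 4 of these (Nfkbia, Nfkbie, Tnfaip3 and Nfkb2) held a match, against 1204 of 27025 genes (4.46%) in the whole table. Nfkb2 had matches in all 3 of its windows. In its first window GGGAATTCCC, beginning 39 bases before the start and matching on both strands, overlapped GGAATTCCCC, and GGGGCTTTCC, beginning 11 bases before the start, stood apart from them. A match is a description of these letters and does not show that a protein binds there.

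Signals were deposited on a linear scale, and each array had the same 2% trimmed mean of 1500. The tests used quantile-normalized log2(signal + 167.8), and 21296 probe sets passed the filter on low values. Of the 19 member probe sets 14 passed. The others were both probe sets of Nfkbie, that of Relb, and 1 each of Nfkbiz and Birc3. The 14 belonged to 7 genes, and Nfkbia, Nfkbiz, Tnfaip3 and Nfkb2 had more than 1 of them. Counts of member probe sets thus include repeated readings of a gene. All 8 cardiomyocyte markers passed the same filter. Both 1 h arrays stood apart in the summed signal of 6 lung epithelium markers. It was 435008 in aldosterone and 187416 in control there, and between 1124 and 5785 at the other times. Neutrophil markers (8 genes) were also high at 1 h, at 44871 in aldosterone and 17347 in control, against 5048 to 9227 at the other times, while 3 of the 8, Camp, Mpo and Cxcr2, lay below the filter. Values at 1 h are given, and member counts for the overall test of time and for the arms are also given without them. The correlations, the counts of highest arrays and the p-values for time of other pathway genes are given only with them. The 3 contrasts between times take no mean from the 1 h arrays, while the overall test of time and both comparisons of the arms use them. The log2 ratio of the 3′ to the 5′ Gapdh probe set, a sign of RNA integrity, ran from -0.23 to 3.92 over the arrays, with 3.36 in aldosterone and 0.35 in control at 2 h.

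Nfkbia, which encodes the main inhibitor of RelA-containing dimers, went up by 2 h in both arms and was back near its first level by 4 h. In aldosterone hearts its brightest probe set (1420088_at) had a deposited signal of 37993 at 0.5 h, 77076 at 1 h, 101224 at 2 h, 39302 at 3 h, 36349 at 4 h, 37020 at 5 h and 36747 at 12 h. In control hearts it had 30836, 64235, 89431, 55705, 37928, 26161 and 42321 at the same times, and the uninjected heart had 28385. The 2 arrays of 2 h were the highest of the 14 and the 2 arrays of 1 h came next. At 3 h the control value was the higher of the pair, and at 5 h the aldosterone value was.

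**Figure D1:**
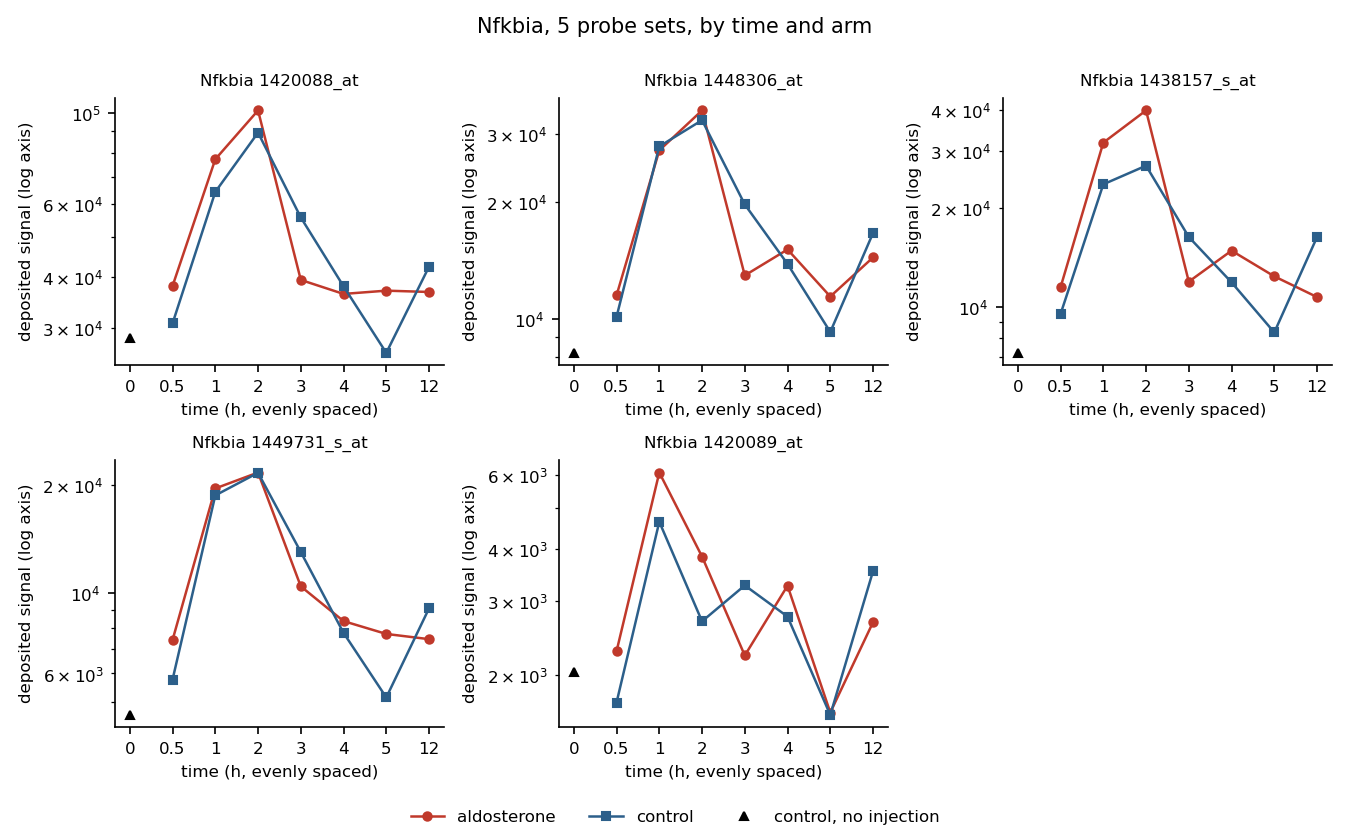
Deposited signal (log axis) of the 5 Nfkbia probe sets against time in h (evenly spaced, not to scale), with aldosterone arrays as red circles, control arrays as blue squares and the uninjected control as a black triangle; each point is 1 array. For 4 probe sets both arms were highest at 2 h, and for 1420089_at both were highest at 1 h.

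On the log2 scale, 4 of the 5 Nfkbia probe sets were highest at 2 h in both arms, and 1420089_at was highest at 1 h in both. The mean of the 2 h arrays was 2.54-fold that of the 0.5 h arrays for 1420088_at, 2.71-fold for 1448306_at, 2.77-fold for 1438157_s_at, 2.96-fold for 1449731_s_at and 1.62-fold for 1420089_at, all on the scale of quantile-normalized log2(signal + 167.8). Across the 14 arrays, Pearson r with 1420088_at was 0.96 for 1448306_at, 0.95 for 1438157_s_at, 0.97 for 1449731_s_at and 0.64 for 1420089_at. These correlations describe probe sets read from the same arrays and are no replicate of the result.

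Tnfaip3 encodes A20, a ubiquitin-editing enzyme that ends NF-kB signalling upstream of the kinases. Its brightest probe set (1433699_at) had 1256, 2679, 6072, 1245, 1228, 1195 and 191 in aldosterone hearts at 0.5, 1, 2, 3, 4, 5 and 12 h. The control hearts had 799.9, 1504, 6358, 2063, 1196, 1076 and 974.4, and the uninjected heart 678.9. Both 2 h arrays stood far above every other array, and the lowest value was that of aldosterone at 12 h. The 2 h mean was 5.97-fold that of 0.5 h. The second probe set, 1450829_at, was also highest at 2 h in both arms, with 703.2 in aldosterone and 1386 in control, and had a fold of 1.66.

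Nfkbiz encodes an atypical nuclear I-kappa-B protein that activates part of the NF-kB response. In aldosterone hearts 1417483_at had 665.3 at 0.5 h, 3577 at 1 h, 2786 at 2 h, 719.5 at 3 h, 1307 at 4 h, 1312 at 5 h and 811.2 at 12 h. Control hearts had 548.8, 1895, 2640, 1351, 1156, 1027 and 796.3, and the uninjected heart had 661.8. The arms differed in their highest time, 1 h in aldosterone and 2 h in control, but the 1 h arrays were those that carried lung transcripts, whose part in this value was not tested. The 2 h mean was 4.22-fold that of 0.5 h. Nfkbiz 1448728_a_at was highest at 2 h in both arms, with 1286 in aldosterone and 1809 in control.

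Bcl3, an I-kappa-B family co-factor that acts in the nucleus with NF-kB subunits, was high at both 2 and 3 h. Its signal (1418133_at) was 370.4, 550.8, 2336, 1928, 892.1, 796.3 and 71.3 in aldosterone hearts at 0.5 to 12 h, against 294.5, 651.9, 2129, 1776, 1208, 579.8 and 415.9 in control hearts. The uninjected heart had 62.5, lower than every array of 0.5 to 12 h. The 4 arrays of 2 and 3 h were the 4 highest of the 14. Bcl3 at 2 h was 5.45-fold its 0.5 h mean, and at 3 h it was still 2.15 higher on the log2 scale.

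Birc3 encodes a ubiquitin ligase of the TNF receptor complex. Its 1421392_a_at signal was 1727, 1955, 4476, 2189, 1898, 2030 and 1932 in aldosterone hearts, against 1782, 1733, 5038, 2501, 2649, 1819 and 1401 in control hearts, with 1044.5 in the uninjected heart. Only the 2 h arrays stood clear of the others, at 2.64-fold the 0.5 h mean. The other Birc3 probe set, 1425223_at, was below the filter and did not share this, with a 2 h mean 0.88-fold that of 0.5 h. It had 304.9 in aldosterone and 210.4 in control at 2 h, against 307 in aldosterone and 502.8 in control at 0.5 h. Nfkbie, another cytoplasmic inhibitor, was too low to be tested. Its brighter probe set was highest at 2 h in both arms, at 595.7 in aldosterone and 746.8 in control, and it ran from 64.3 to 460.2 in aldosterone and from 173.8 to 638.6 in control at the other times.

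The subunits had no maximum that both arms shared. Rela, which encodes the main transactivating subunit, had 7143, 6238, 7091, 5977, 7459, 6184 and 6764 in aldosterone hearts, and 7228, 6433, 10534, 7734, 5707, 6002 and 5225 in control hearts. The uninjected heart had 7318. The highest value was control at 2 h, which the aldosterone array of that time did not share. Rela had a mean 2 h level 1.11-fold that of 0.5 h.

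Nfkb2, which encodes the precursor of the non-canonical subunit, gave no agreed course from its 2 probe sets. The brighter, 1429128_x_at, had 1837, 655.2, 1385, 1051, 1576, 816.5 and 1309 in aldosterone hearts, and 209.5, 1460, 1612, 1278, 1359, 1004 and 1214 in control hearts. The other, 1425902_a_at, had 1274, 82.7, 460.5, 1344, 524.3, 699.8 and 407.9 in aldosterone hearts, and 1506, 204.2, 1269.6, 1419, 308.1, 877.9 and 496.8 in control hearts. The first set was low on 1 array, control at 0.5 h, while the other was high on all 4 arrays of 0.5 and 3 h, which shared a scan day and a chip lot. Control at 2 h, of another scan day and chip lot, was also high with this other set, at 1269.6. Relb, the partner of the processed Nfkb2 product, was too low to be tested, and its signal ran from 45.2 to 675.1 in aldosterone and from 42.3 to 970.7 in control.

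**Figure D2:**
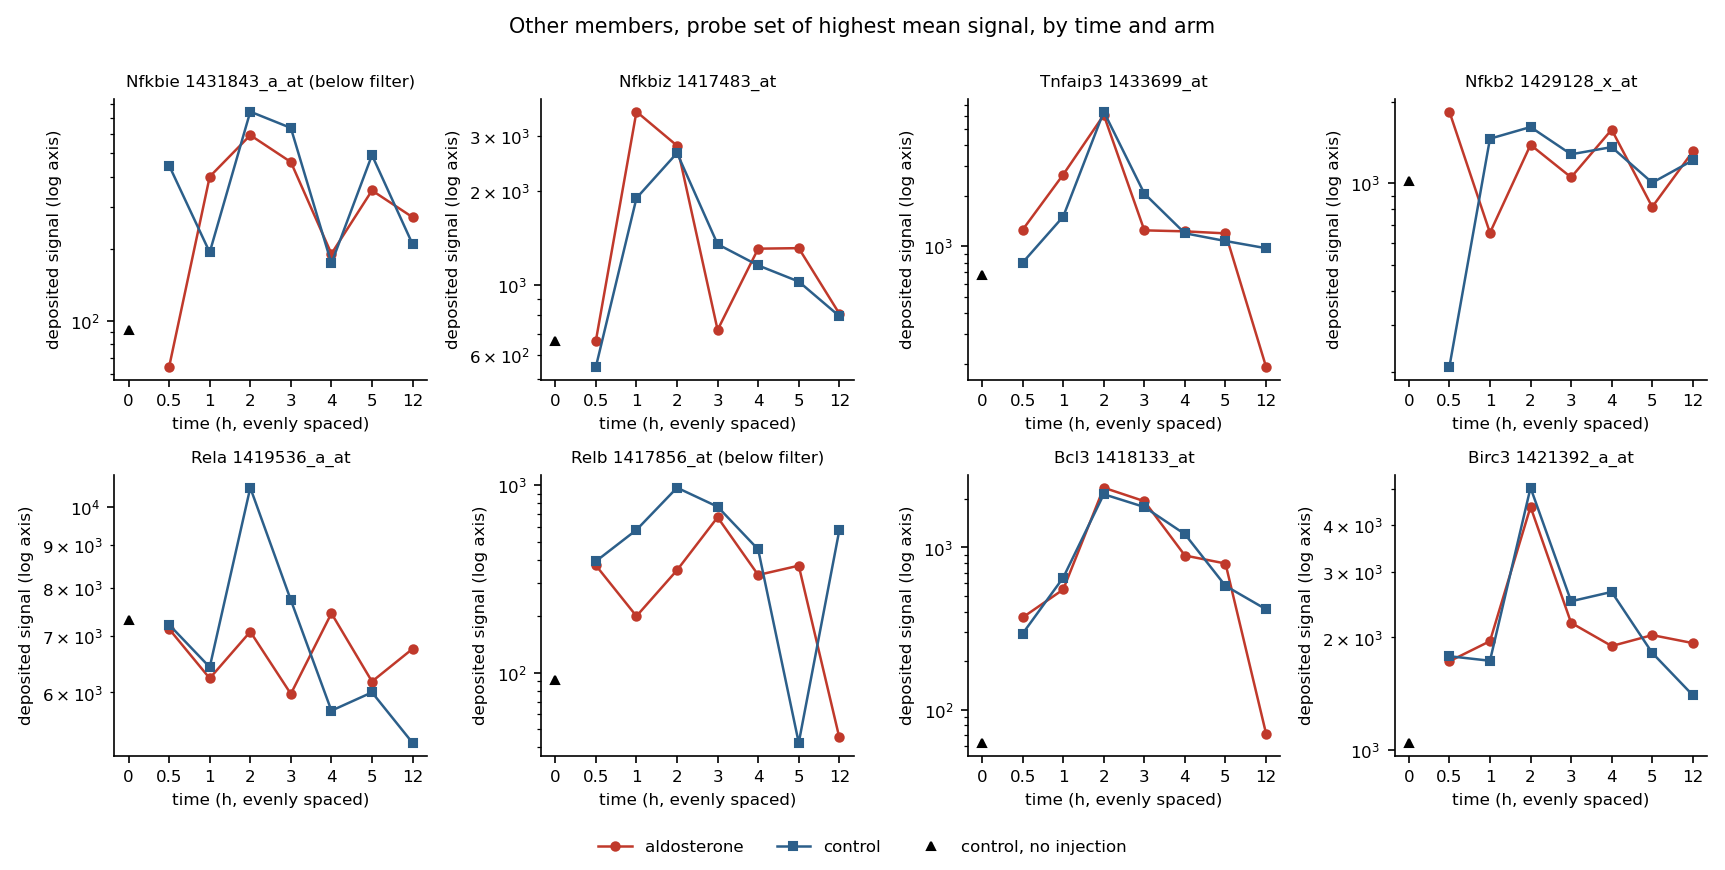
Deposited signal (log axis) against time in h (evenly spaced) for the brightest probe set of each other member, with aldosterone as red circles, control as blue squares and the uninjected control as a black triangle; each point is 1 array. Tnfaip3, Bcl3 and Birc3 are highest at 2 h in both arms, while Rela and Nfkb2 show no shared maximum.

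Time was then tested over both arms with treatment as a covariate, where the spread comes from the 2 arrays of each time (6 residual degrees of freedom before moderation). Of the 14 tested member probe sets 9 changed with time at an adjusted p under 0.05, against 410 of 21296 (1.93%) in the whole table. They were 4 probe sets of Nfkbia (adjusted p = 0.00312 for 1420088_at, 0.00246 for 1448306_at, 0.0192 for 1438157_s_at and 0.00230 for 1449731_s_at), and 1 each of Bcl3 (0.0179), Nfkbiz (0.0274), Nfkb2 (0.0338 for 1425902_a_at), Birc3 (0.0341) and Tnfaip3 (0.0344). Those that did not pass were Nfkbia 1420089_at (0.0551), Rela (0.468), and the second probe sets of Nfkbiz (0.436) and Tnfaip3 (0.470) and the brighter one of Nfkb2 (0.717). Without both 1 h arrays 8 passed, and the loss was Nfkb2 (0.141). Leaving out the 0.5 h array of either arm left 4, the control array of 4 h 5, the control array of 5 h 4, the aldosterone array of 5 h 5 and both arrays of 0.5 h 4. Without the variance trend in limma 1 passed, Nfkbia 1449731_s_at. Without the filter the calls of Tnfaip3 (0.0529), Birc3 (0.0529) and Nfkb2 (0.0685) were lost, with a pseudocount of 32 that of Tnfaip3 (0.0575), and with the Gapdh covariate that of Nfkb2 (0.131). Restricted to times that shared a scan day, 5 passed, namely 4 Nfkbia probe sets and Bcl3 (0.0219), while Nfkbiz (0.103), Tnfaip3 (0.0907), Birc3 (0.112) and Nfkb2 (0.70) did not.

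Both 2 h arrays lay above the other 12 arrays for 7 of the 14 member probe sets, against 266 of 21296 (1.25%). The highest array was at 2 h in each arm for 9 of the 14, against 433 of 21296 (2.03%). The 7 were 3 probe sets of Nfkbia and 1 each of Nfkbiz, Tnfaip3, Bcl3 and Birc3. That of Nfkbiz was the weaker 1448728_a_at, which did not pass the test for time, and the brighter 1417483_at was not among the 7. Members and tests were chosen with earlier results of these data known, so these shares are descriptions and no independent test.

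Between 0.5 h and the mean of 2 and 3 h, 5 member probe sets rose and none fell, against 108 of 21296 called (0.507%), 101 of them higher (0.474%) and 7 lower (0.0329%). On the log2 scale the rise was 2.30 ± 0.33 for Bcl3 (SE, adjusted p = 0.00708) and 1.40 ± 0.27 for Nfkbiz (adjusted p = 0.0473). Nfkbia rose by 0.88 ± 0.15 with 1420088_at (adjusted p = 0.0177), by 0.96 ± 0.15 with 1448306_at (0.0106) and by 1.17 ± 0.16 with 1449731_s_at (0.00557). Tnfaip3 had 1.64 ± 0.40 (0.105) and Birc3 0.91 ± 0.19 (0.0655), neither of which passed, and Rela had -0.00 ± 0.19 (1.00). Nfkb2 had 0.92 ± 0.51 with 1429128_x_at (0.458) and -0.27 ± 0.31 with 1425902_a_at (0.735), and neither passed. The median over the 14 member probe sets was 0.91, against 0.02 over all 21296. Of the 14 estimates 12 were positive, against 53% of all. These 14 probe sets belong to 7 genes and are no independent readings.

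By arm, the difference between single arrays (2 h minus 0.5 h, log2 scale) was 1.24 in aldosterone and 1.45 in control for Nfkbia. It was 1.93 in aldosterone and 2.22 in control for Nfkbiz, and 2.16 in aldosterone and 3.00 in control for Tnfaip3. Bcl3 had 2.32 in aldosterone and 2.57 in control, and Birc3 had 1.34 in aldosterone and 1.47 in control. Rela and Nfkb2 did not share this direction in both arms. Rela had -0.11 in aldosterone and 0.41 in control. Nfkb2 1429128_x_at had -0.24 in aldosterone and 2.48 in control, and Nfkb2 1425902_a_at -1.01 in aldosterone and -0.14 in control. The subunit Relb, below the filter, had 0.13 in aldosterone and 1.28 in control. None of these values has a test of its own. At times that shared a scan day, only 3 h minus 0.5 h could be formed, and there Bcl3 had 2.15 (adjusted p = 0.0412) while Nfkbia had 0.41 (0.58), Nfkbiz 0.73 (0.611), Tnfaip3 0.71 (0.77) and Birc3 0.41 (0.711). Without both 2 h arrays 0 member probe sets passed for the rise by limma, and without the control array of 0.5 h also 0 (Bcl3 at 0.0698 and 0.14, Nfkbia 1420088_at at 0.573 and 0.274). Leaving out the control array of 3 h or the aldosterone array of 0.5 h or of 2 h left 3, leaving out both 3 h arrays gave 8, and the Nfkbiz call was lost in 15 of 20 such settings, with the deposited scaling (0.0861), without the filter (0.0873) and with the Gapdh ratio as a covariate (0.112).

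Tissue markers also differed between these times. All 4 atrial markers (Nppa, Sln, Myl7 and Myl4) had positive estimates for the same contrast with a median of 1.51, although none passed. Their summed signal, higher at the later times in control alone, was 219235 in aldosterone and 46444 in control at 0.5 h, 206185 in aldosterone and 457561 in control at 2 h, and 205956 in aldosterone and 161489 in control at 3 h. Endothelial markers (7 of 7 tested) had a median of -0.34, with 1 estimate above 0 and none that passed. Their sum was 48907 in aldosterone and 46860.0 in control at 0.5 h, 38136 in aldosterone and 39838 in control at 2 h, and 40968 in aldosterone and 36241 in control at 3 h. Macrophage markers (10 of 10 tested) had a median of 0.05 and ran from 41806 to 63142 outside 1 h. Their part in the result was not tested, and in whole tissue fewer cells of a type and less RNA per cell cannot be told apart.

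Between 2 and 3 h and the mean of 4 and 5 h, 3 member probe sets fell and none rose, against 16 of 21296 called (0.0751%), 14 of them lower (0.0657%) and 2 higher (0.00939%). All 3 belonged to Nfkbia, which fell by 1.07 ± 0.12 with 1420088_at (SE, adjusted p = 0.00591), by 0.97 ± 0.12 with 1448306_at (0.0132) and by 1.19 ± 0.13 with 1449731_s_at (0.00591). Tnfaip3 had -1.23 ± 0.32 (0.303), Bcl3 -1.01 ± 0.27 (0.312), Birc3 -0.61 ± 0.16 (0.284) and Nfkbiz -0.34 ± 0.22 (0.685). Estimates were below 0 for 14 of 14 member probe sets, against 45.2% of all, and the medians were -0.73 for members and 0.03 for all. The 14 cover 7 genes, so some genes count more than once here. Atrial markers had a median of -0.47 (0 of 4 above 0) and fat markers -0.63 (0 of 3 above 0) in this contrast, and none passed. The atrial sum was 483454 in aldosterone and 327277 in control at 4 h, and 72949 in aldosterone and 106730 in control at 5 h, and its part in the result was not tested. Within a scan day (5 h minus 2 h) 4 passed, with Nfkbia 1420088_at at -1.65 (0.00274). All 3 calls were lost without the control array of 4 h or of 5 h, without both arrays of 2 h or of 5 h, and without the variance trend.

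From 4 and 5 h to 12 h no member passed by limma, against 3 of 21296 (0.0141%), and 3 of the 14 had an unadjusted p under 0.05, against 1893 (8.89%). Bcl3 had -1.52 ± 0.33 (SE, adjusted p = 0.21), Tnfaip3 -1.10 ± 0.40 (0.451) and Nfkbia 0.24 ± 0.15 (0.669). At 12 h Bcl3 had 71.3 in aldosterone and 415.9 in control, and Tnfaip3 had 191.2 in aldosterone and 974.4 in control. Without the aldosterone array of 12 h the estimate was -0.84 for Bcl3 and -0.20 for Tnfaip3. Without the control array of 12 h it was -2.20 for Bcl3 and -1.99 for Tnfaip3.

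**Figure D3:**
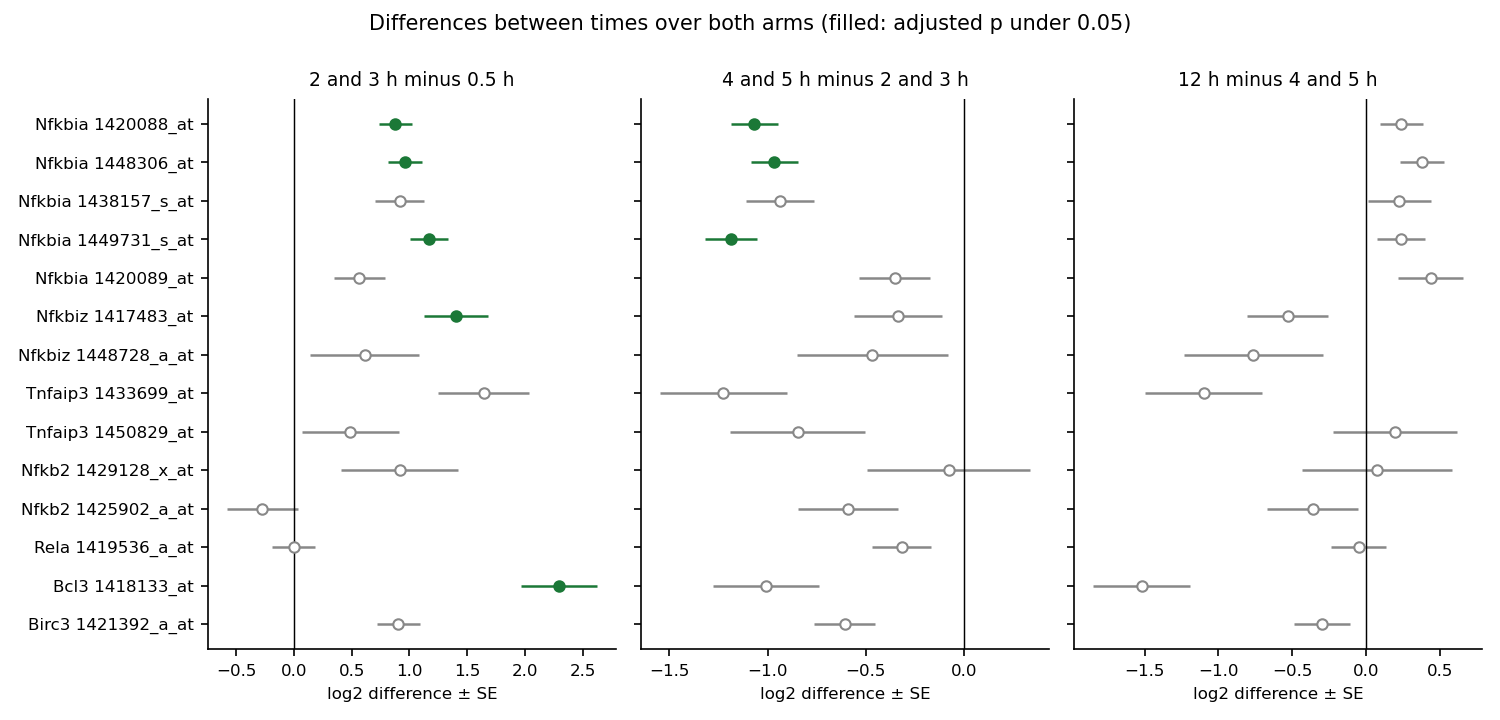
Log2 differences between times over both arms (points, with bars of 1 SE) for the 14 tested member probe sets; filled green points have an adjusted p under 0.05. In all, 5 probe sets rose by 2 and 3 h, 3 of Nfkbia fell by 4 and 5 h, and none passed at 12 h.

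The difference between the arms was tested over the 7 times with time as a block. No member passed by limma, against 0 of 21296 (0%), and 0 of the 14 had an unadjusted p under 0.05, against 927 of 21296 (4.35%). Nfkbia 1420088_at differed by -0.01 ± 0.09 on the log2 scale (SE, n = 7 pairs; aldosterone minus control), with a 95% interval of -0.20 to 0.19. The aldosterone heart was the higher of the pair at 4 of 7 times. Bcl3 had -0.07 ± 0.20 (interval -0.51 to 0.37), Birc3 -0.01 ± 0.12 (-0.26 to 0.25), Rela -0.07 ± 0.11 (-0.32 to 0.18), Nfkbiz 0.17 ± 0.17 (-0.20 to 0.53) and Tnfaip3 -0.10 ± 0.24 (-0.63 to 0.43). Wide intervals, as for Nfkb2 1429128_x_at (-0.46 to 0.91), leave room for moderate differences. The median over the 14 was -0.03, against 0.01 over all probe sets. Without both 1 h arrays 0 members passed as well.

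**Figure D4:**
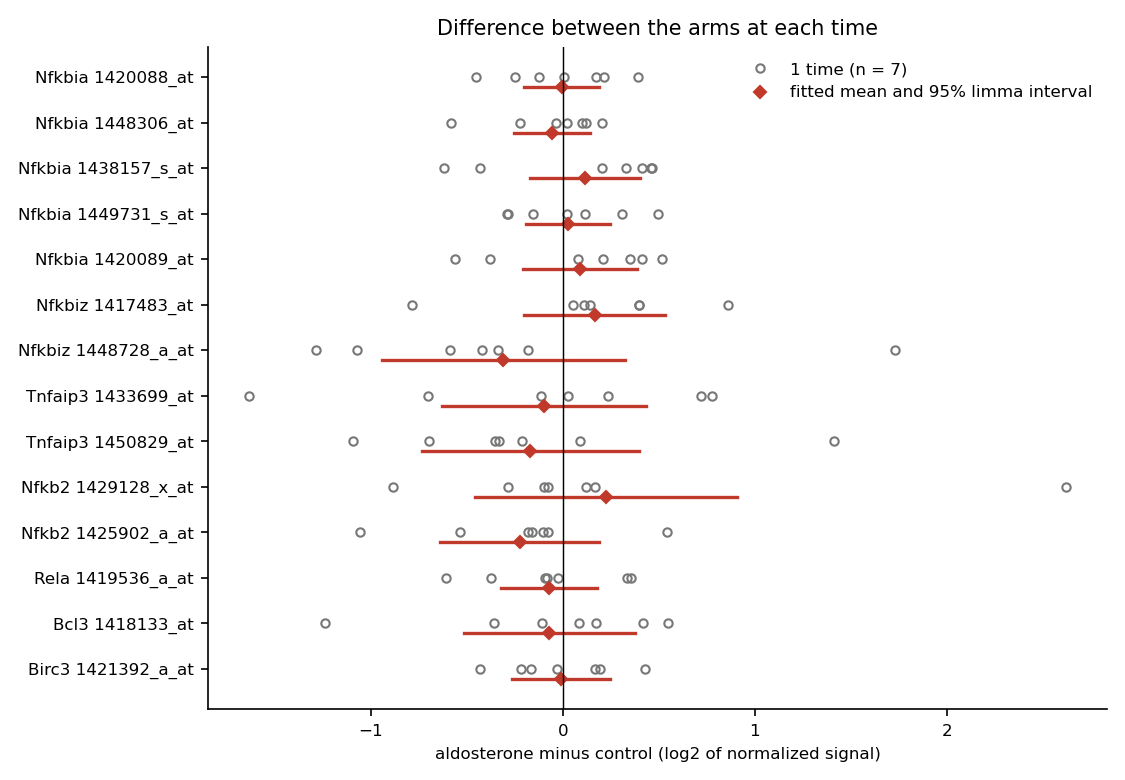
Difference between aldosterone and control (log2 of normalized signal) for each tested member probe set: grey circles are the 7 times, red diamonds the fitted mean and bars its 95% limma interval. Every interval includes 0, and the widest points are Nfkb2 1429128_x_at at 0.5 h (2.62) and Nfkbiz 1448728_a_at at 12 h (1.73).

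Whether the difference between the arms changed with time was tested as 3 to 5 h minus 0.5 to 2 h. No member passed, against 0 of 21296 (0%), and again 0 of 14 had an unadjusted p under 0.05, against 1443 (6.78%). Tnfaip3 had -0.61 ± 0.34 (SE, adjusted p = 0.762), Nfkbiz -0.54 ± 0.35 (0.784) and Nfkbia -0.19 ± 0.19 (0.858). Rela had 0.25 ± 0.23 (0.849), and the weaker probe sets of Tnfaip3 (0.86 ± 0.54, 0.779) and Nfkb2 (0.71 ± 0.38, 0.754) also lay above 0. In all, 4 of the 14 estimates were positive, against 46.5% of all, and without both 1 h arrays 0 members passed as well. The median over members was -0.18, against -0.03 over all.

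Single pairs are values with no replicate check. At 3 h 13 of the 14 member probe sets were lower in aldosterone and 1 was higher, while 48.7% of all probe sets were higher in aldosterone, and the member median was -0.40. Nfkbia differed by -0.45, Nfkbiz by -0.79 and Tnfaip3 by -0.70 at that time. Members were higher in aldosterone for 10 of 14 at 0.5 h (51% of all), 7 at 1 h (51.6%), 6 at 2 h (55.2%), 10 at 4 h (48.7%), 9 at 5 h (51.8%) and 5 at 12 h (50.5%). At 12 h Tnfaip3 1433699_at differed by -1.63 and Bcl3 by -1.24. The aldosterone signals there were 191.2 for Tnfaip3 and 71.3 for Bcl3, both below the filter level of 526.7. The other Tnfaip3 probe set, 1450829_at, differed by -0.36. The direction of most members differed between pairs.

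The genes most like Nfkbia 1420088_at over the 14 arrays, out of 11219 genes compared, were Zfp36 (Pearson r = 0.96), Nuak2 (0.91), Cebpd (0.89), Mapk6 (0.86), Cxcl2 (0.86), Cd83 (0.85), Enc1 (0.85) and Cyth3 (0.84). Zfp36 encodes a protein that destabilises cytokine mRNAs, Cebpd an acute-phase transcription factor, Cxcl2 a neutrophil chemokine and Cd83 an immune cell surface protein. Of the 8, Zfp36 (adjusted p = 0.0222) and Cebpd (0.000893) also passed the test for time. Among the members, r with this probe set was 0.82 for Tnfaip3, 0.75 for Nfkbiz, 0.69 for Birc3, 0.54 for Bcl3, 0.45 for Rela and 0.23 for the brighter probe set of Nfkb2. The second tested probe sets had lower values, 0.45 for Tnfaip3, 0.52 for Nfkbiz and -0.21 for Nfkb2. All points share arrays and scan days, so these values are descriptions.

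Other genes of the pathway were read on 1 probe set per gene, where 190 of 11226 genes changed with time (1.69%). Among NF-kB targets, 6 of 21 tested genes changed with time, of 26 listed. The 4 with the smallest p were Lcn2, a siderophore binder (adjusted p = 0.000962), Vcam1 (0.00108) and Icam1 (0.00245), endothelial adhesion molecules, and Selp, a selectin of platelets and endothelium (0.00414); Saa3 and Irf1 also passed and are named after their values were seen. Between 0.5 h and 2 to 3 h, 5 targets rose and none fell, against 62 of 11226 genes called (0.552%): Selp by 3.90 ± 0.41, Icam1 by 3.31 ± 0.31, Vcam1 by 2.70 ± 0.22, Lcn2 by 2.14 ± 0.21 and, named after its value was seen, Gadd45b by 1.30 ± 0.22 (log2, SE; adjusted p of 0.000833, 0.000424, 0.000130, 0.000574 and 0.0193). The median over the 21 was 0.81, against 0.03 over all genes. The target list was chosen with earlier results of these data known, so these shares are descriptions and no independent test. By 4 and 5 h, Vcam1 fell by 1.59 ± 0.18 (adjusted p = 0.00591) and Icam1 by 1.68 ± 0.26 (0.0398), against 10 of 11226 genes called (0.0891%), while Lcn2 had 0.71 ± 0.17 (0.235).

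The upstream parts of the pathway gave no call for time, against 190 of 11226 genes (1.69%) in the whole table. This held for 0 of 9 tested other regulators and Rel-family members, 0 of 10 receptors and adaptors, 0 of 6 kinase components and 0 of 3 non-canonical components by limma. At a share of 1.69% lists this short would mostly hold no call, so these counts do not set the upstream genes apart. Counted once each, 4 of these 27 genes had an unadjusted p under 0.05 for time, against 4054 of 21296 probe sets (19%). Within each list the smallest adjusted p for time was 0.366 for Otulin, a linear deubiquitinase, among the other regulators, 0.246 for Il1r1, an interleukin receptor, 0.174 for Ikbkb, a catalytic I-kappa-B kinase, and 0.221 for Tnfrsf12a, the TWEAK receptor, among the non-canonical components. Il1r1 had a 2 to 3 h estimate of 1.21 ± 0.30 (SE, adjusted p = 0.109). No gene of any of these lists, targets included, differed between the arms at an adjusted p under 0.05, against 0 of 11226 genes (0%), and 3 of the 48 had an unadjusted p under 0.05, against 927 of 21296 probe sets (4.35%).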

How the data were processed

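Total RNA of whole hearts was hybridised to Affymetrix mouse arrays. Per the submitters' processing notes GCOS 1.2 gave the deposited signals, which are linear, and each array had a 2% trimmed mean of 1500. The platform annotation gave 34958 probe sets 1 gene symbol, 932 more than 1 and 9211 no symbol. Signals plus 167.8 (the 25th percentile of all signals) were put on a log2 scale and quantile normalized, so folds of low genes are understated. Probe sets at or above a level of 526.7 (the median signal) on average were tested, control probe sets aside. limma 3.58.1 (R 4.3.3) was run with a variance trend and Benjamini-Hochberg adjustment over all 21296 probe sets, with a threshold of 0.05. Files were read with version 1.17.8 of data.table, and figures drawn with matplotlib 3.10.9. The arms were compared with time as a 7-level block, since the labels give both arms the same times, scanned on the same day. Times were compared with treatment as a covariate. The steps were tested on simulated data. All members are named, and the brightest probe set leads. The 8 genes most like Nfkbia were named by Pearson correlation, and up to 4 genes per pathway list by the smallest p for time. Members, lists and tests were chosen with earlier results of these data known. Array files gave 3 scan days and 2 chip lots: the 0.5 and 3 h arrays shared day 1 and lot 1, those of 1, 4 and 12 h day 2, and those of 2 and 5 h and the uninjected array day 3. A station number was also given. It was 1 for both arrays of 1, 2 and 4 h and for aldosterone at 5 h, and 2 otherwise. The 2 h arrays thus differed in station from those of 0.5 and 3 h, and the part of the station was not tested. The number of arrays limits the precision. Nfkb1, and promoters of Nfkbiz and Relb, were not analysed here. Alternatives were the deposited scaling, a pseudocount of 32, no filter, no variance trend, a Gapdh covariate, no block, times within scan days, and leaving out each array or pair.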

Additional observations from a re-analysis of the deposited data

Results flagged for a closer look

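Among the 14 tested member probe sets, each with 7 differences between the arms (aldosterone minus control, log2), 2 had a time that lay far from the others by a gap test that chance passes in about 1 of 20 groups. Nfkb2 1429128_x_at differed by 2.62 at 0.5 h, where the next highest time had 0.17 and the lowest -0.89. On the deposited scale its signal there was 1837 in aldosterone and 209.5 in control, while Nfkb2 1425902_a_at had 1274 in aldosterone and 1506 in control. Nfkbiz 1448728_a_at differed by 1.73 at 12 h, where the next highest time had -0.18 and the lowest -1.29. Its signal there was 773.3 in aldosterone and 117.5 in control, while Nfkbiz 1417483_at had 811.2 in aldosterone and 796.3 in control. In both cases the other probe set of the gene did not share the gap, and 1 control array was low.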

How the results depend on the processing

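The member counts for the aldosterone effect and for its change between the windows stayed at 0 under every alternative run, including no replicate block (0), where time was left out of the fit, so dropping the block changed no call. For the time effect (9 probe sets as reported), 1 was called without the variance trend and 5 within scan days, and 4 to 9 when arrays or pairs were left out. For 2 and 3 h minus 0.5 h (5 as reported), 2 were called without the variance trend and 1 within scan days, and 0 to 8 when arrays or pairs were left out. For 4 and 5 h minus 2 and 3 h (3 as reported), 0 were called without the variance trend, and 0 to 4 when arrays or pairs were left out. For 12 h minus 4 and 5 h, 0 were called under every alternative run. The deposited scaling, the pseudocount of 32, no filter and the Gapdh covariate kept these counts within 1.5 times of those reported, but ended single calls: for time Tnfaip3 (no filter and pseudocount of 32), Birc3 (no filter) and Nfkb2 1425902_a_at (no filter and Gapdh), and for the rise Nfkbiz (deposited scaling, no filter and Gapdh). Over all probe sets, the time effect gave 410 calls as reported, 46 without the variance trend, 107 within scan days, 215 with the Gapdh covariate, 246 without the filter and 85 to 891 when arrays or pairs were left out. Without the variance trend the adjusted p for time was 0.0682 for Nfkbia 1420088_at and 0.0635 for Bcl3. The causes were not tested.

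Some estimates that were not called changed sign. The aldosterone effect of Nfkbia was 0.07 with the deposited scaling, against -0.01 as reported. With the Gapdh covariate the window difference of Birc3 was 0.01, the 4 and 5 h estimate of Nfkb2 1429128_x_at 0.07 and the 12 h estimate of Rela 0.14; within scan days the 12 h estimate of Nfkb2 was -0.21. When arrays or pairs were left out, the aldosterone effect ran from -0.07 to 0.07 for Nfkbia, -0.25 to 0.16 for Tnfaip3, -0.18 to 0.41 for Nfkb2, -0.14 to 0.02 for Rela, -0.17 to 0.12 for Bcl3 and -0.08 to 0.06 for Birc3. The window difference ran from -1.33 to 0.43 for Nfkb2 (-0.61 as reported) and -0.30 to 0.15 for Bcl3. Nfkb2 ran from -0.48 to 2.32 for 2 and 3 h minus 0.5 h (0.92 as reported), from -0.36 to 0.21 for 4 and 5 h minus 2 and 3 h, and from -0.21 to 0.36 for 12 h minus 4 and 5 h. Nfkbiz ran from -1.01 to 0.34 at 4 and 5 h, and Rela from -0.29 to 0.19 at 12 h. Among single arrays left out, the turned values included 0.03 for the aldosterone effect of Nfkbia and of Birc3, 0.08 for Rela and -0.02 for Nfkb2 at 12 h. None of these estimates was called as reported.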
